A study of Homo sapiens with 8 samples.

Results

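The cytosolic ribosomal proteins were followed in RNA-seq of MM1.S, an established human line of malignant plasma cells (multiple myeloma). Members were chosen by gene name: the families RPL and RPS with a number, their lettered forms, RPSA, and RPLP0, RPLP1 and RPLP2, without S6 kinases and pseudogenes. This gave 81 of the 16295 listed genes, 48 for the large and 33 for the small subunit. Of these, 80 had enough reads to be tested, and RPS4Y1, a paralogue with too few, is not described further. The genes RPL3L and RPL10L were not among the listed names. Cells were kept for 24 h with 0.5 uM MS177, with 0.5 uM MS177N1, with 0.5 uM C24 or with DMSO, the solvent, and 2 libraries were made per group. From background knowledge, C24 inhibits the histone methyltransferase EZH2, MS177 joins this inhibitor to a ligand of the ubiquitin ligase receptor CRBN and so has EZH2 degraded, and MS177N1 is a relative made as a control, which does not degrade EZH2. Every group was the same cell line in the same medium, and nothing in the labels says that replicates were separate cultures, so p-values measure the spread between these libraries, which may be technical.

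A ribosome holds 1 copy of nearly every one of these proteins, on a large subunit that joins amino acids and a small subunit that reads the mRNA. Their mRNAs are among the most abundant in a growing cell. Most start with a C inside a run of C and T, the terminal oligopyrimidine (TOP) motif, through which the kinase mTORC1 controls their translation. Antibody-secreting cells and myeloma cells make much protein, and loss of 1 copy of several of these genes causes Diamond-Blackfan anaemia.

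The start sites of the members the results turn on are shown here, since this pyrimidine run is common in the family. Not all of them have a long run at the annotated start: it is 3 bases in RPS27L and 2 bases in RPS29. Each line gives 15 bases before and 15 bases from the RefSeq start (GRCh38.p14), on the gene's own strand. Capitals mark the longest run of C or T that reached within 10 bases of the start. RPS26, RPS7 and RPS16 were among the lowest with MS177, RPL3 was the one called higher, RPL13A had the most reads and RPLP1 the most per length, RPS27L is a paralogue, and RPS29 differed most between replicates.
RPS26 (chr12:56041903-56041932, + strand): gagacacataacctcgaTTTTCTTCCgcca
RPS7 (chr2:3575245-3575274, + strand): gtttccgCCCTCCTCCTCgcgctgtttccg
RPS16 (chr19:39435935-39435964, - strand): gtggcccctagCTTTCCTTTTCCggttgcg
RPL3 (chr22:39319609-39319638, - strand): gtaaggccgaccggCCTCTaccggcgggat
RPL13A (chr19:49487593-49487622, + strand): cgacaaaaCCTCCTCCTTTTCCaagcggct
RPLP1 (chr15:69452803-69452832, + strand): gtataggcgcgagagCCCCTTTCCTCagct
RPS27L (chr15:63157463-63157492, - strand): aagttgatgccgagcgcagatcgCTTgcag
RPS29 (chr14:49598696-49598725, - strand): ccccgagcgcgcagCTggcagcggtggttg

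RefSeq promoters were matched for 65 of the 81 members. Of these, 59 (90.8%) had a run of at least 5 C or T that reached within 10 bases of the start, against 47.2% of 27305 promoters in the same table and 45.8% of the 10582 of them whose genes are listed in these libraries. The base at the annotated start was C in 48 of 65 members (73.8%), against 15% of all promoters and 11.7% of those of listed genes. The starts used in these cells were not measured. The run covered the start itself in 45 members (69.2%), against 8.3% of all promoters and 7.58% of those of listed genes. The median run was 11 bases in members and 4 bases in all promoters. Promoters of mitochondrial ribosomal proteins, encoded in the nucleus but outside the TOP class, had the run over the start in 7.46% of 67. In the 300 bases of each promoter, counted on both strands, CCGGAAG, a core of ETS-family sites, was found in 22 of 65 members (33.8%), in 10.7% of all promoters, in 18.4% of those of listed genes and in 40.3% of those of mitochondrial ribosomal proteins. AAGATGGC, a YY1 motif, was found in 9.23% of members, 3.03% of all promoters, 5.2% of those of listed genes and 29.9% of those of mitochondrial ribosomal proteins. The E-box CACGTG was found in 4.62% of members, 7.43% of all promoters and 10.1% of those of listed genes, and TATAAA in 7.69%, 12% and 5.76%. Letters matching a motif are not a measurement of binding. Across the 64 tested members with a promoter, the length of the run had a Spearman rho of -0.11 with the log2 fold change of MS177 over DMSO, as a description.

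**Figure D1:**
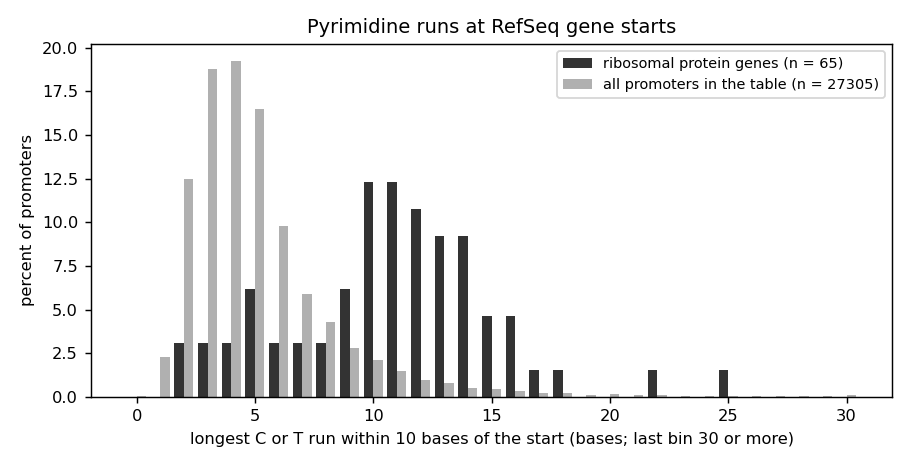
Longest run of C or T within 10 bases of the RefSeq start (x axis, bases) against the percent of promoters (y axis), for 65 ribosomal protein genes (dark bars) and 27305 promoters in the table (light bars). The members centre on 11 bases and all promoters on 4.

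The libraries held 20000665 to 26619099 reads in listed genes, and replicates of a group correlated at Pearson r between 0.985 and 0.988 on the log2 scale. Levels are given as normalized reads, which are reads divided by a library's size factor. All 8 plasma-cell markers had reads in every library. Levels were 12344 to 29318 normalized reads for SDC1, 13887 to 17858 for IRF4 and 1147 to 1345 for CD38, the lowest. Of 12 markers of other cells 6 were listed, none above 80.2 normalized reads. The members together took 9.07% and 8.52% of the reads in the MS177 libraries, 9.01% and 9.16% with MS177N1, 9.56% and 9.35% with C24, and 9.20% and 8.76% with DMSO. The ranges of MS177 and DMSO libraries overlapped, and the C24 libraries held the highest shares. The large-subunit members took 5.35% and 5.04% in MS177 libraries and 5.35% and 5.13% in DMSO libraries. The small-subunit members took 3.73% and 3.47% in MS177 libraries and 3.84% and 3.63% in DMSO libraries. RPL13A had the most reads, 73043 to 76623 normalized reads over the 8 libraries. Per kilobase of annotated transcript, RPLP1 of the stalk was highest (131141 normalized reads per kilobase, mean of 8 libraries), followed by RPL41 (87730) and RPS18 (83609). This order depends on the transcript chosen for each gene. The lowest tested members per length were the paralogues RPL39L (1009), RPS27L (1456) and RPL36AL (2577).

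With MS177, many mRNAs of the family were lower, each by a small amount. In the limma fit over all 14164 tested genes, 37 of 80 members were lower with MS177 than with DMSO at an adjusted p under 0.05 (46.25%) and 1 was higher. Over all genes tested, 29.0% were called lower and 28.9% higher. The median log2 fold change of the members was -0.12, or -8.23%, against 0.00 over all genes. The log2 fold changes of the called members ran from -0.43 to -0.09. Both MS177 libraries lay below the other 6 libraries in 39 members (48.75%; 31.7% of all genes) and above them in 0 members (33.2% of all genes). Bulk RNA cannot tell less of an mRNA in each cell from fewer cells that make it. RNA per cell was not measured.

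Most markers of plasma cells were also lower with MS177. Of 8 such markers, 6 were called lower than with DMSO (75%, against 29.0% of all genes). XBP1 was the 1 called higher (0.11, SE 0.04; 12.5%, against 28.9% of all genes), and CD38 was not called (-0.05, limma adjusted p = 0.638). Their summed level was 90027 and 88239 normalized reads in MS177 libraries, 113627 and 112551 with MS177N1, 111180 and 109454 with C24, and 114748 and 115680 with DMSO. SDC1, the surface proteoglycan CD138, had 12637 and 12344 normalized reads with MS177 and 28598 and 29318 with DMSO (-1.21, SE 0.04). TNFRSF17, the receptor BCMA, followed (-1.04, SE 0.05), then MZB1, a chaperone of antibody assembly (-0.49, SE 0.05). Markers of other cells summed to 114 and 102 normalized reads with MS177 and 106 and 116 with DMSO. Of 4 tested, COL1A1 was called higher (50.6 and 33.9 with MS177, 6.64 and 14.5 with DMSO) and CD3E lower (33.4 and 30.1 with MS177, 76.4 and 61.9 with DMSO). The part of these markers in the result for ribosomal protein genes was not tested.

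Scaling set how far the median of the members lay below 0, but not how far it lay below the median of all genes. Size factors put the typical gene at 0, whereas scaling by total reads raised the median of all genes to 0.09. With total-read scaling 15 members were lower and 3 higher (median -0.04), all 15 among the 37. With the trend of values over transcript length and GC removed, 18 were lower and 8 higher, and 18 of the 37 remained. The median of the members was then -0.02 against -0.01 over all genes, so little of the family's distance from the typical gene was left. Members are short, with a median transcript of 699 nt against 2241 nt over all tested genes. Fitting the MS177 and DMSO libraries alone called 24 lower and 0 higher. The shares of all genes called under these other settings are not given here, so the counts have no background beside them. MS177 replicate 2 was the lower library: its members had a median log2 ratio to the DMSO mean of -0.19, and those of replicate 1 had -0.06.

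**Figure D2:**
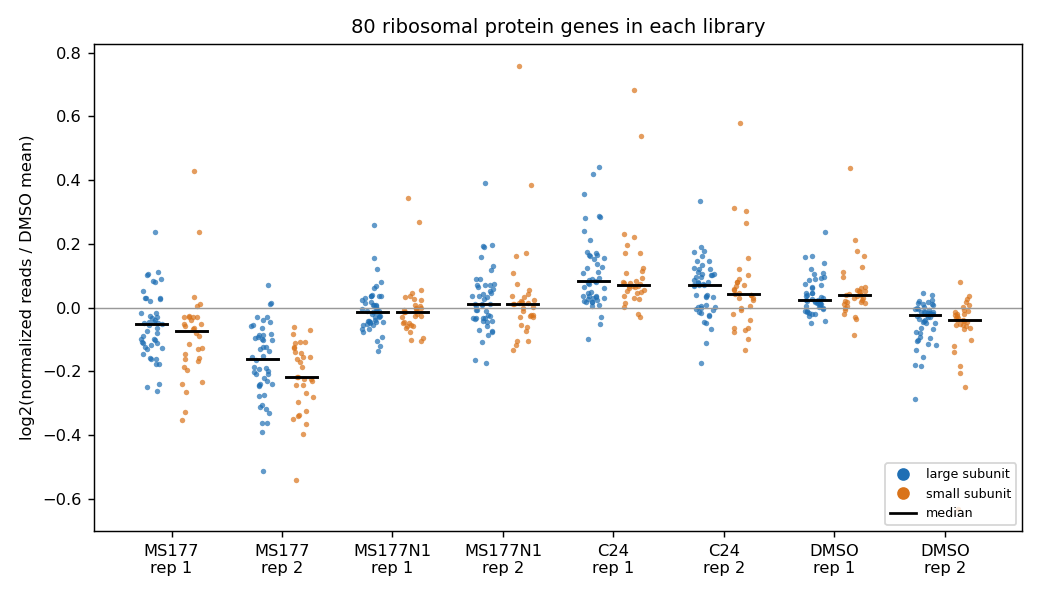
Each point is 1 of 80 ribosomal protein genes in 1 library (x axis), as the log2 of its normalized reads over the DMSO mean (y axis), with large-subunit members in blue, small-subunit members in orange and black lines at the medians. The medians over all 80 are -0.06 and -0.19 in the MS177 libraries, -0.01 and 0.01 with MS177N1, 0.08 and 0.06 with C24, and 0.03 and -0.03 with DMSO.

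Among small-subunit members, 18 of 32 were lower with MS177 than with DMSO (56.25%, against 29.0% of all genes) and 0 were higher (28.9% of all genes). Their median was -0.14. RPS26, which lines the channel where mRNA leaves the ribosome, had 7834 and 6762 normalized reads in MS177 libraries, 9629 and 9419 with MS177N1, 11271 and 9184 with C24, and 9911 and 9751 with DMSO. Both MS177 libraries were the lowest of the 8. Its log2 fold change of MS177 over DMSO was -0.43 (SE 0.10, limma adjusted p = 0.00547), and without MS177 replicate 2 it was -0.33 (limma adjusted p = 0.0929). RPS16, whose tail reaches the tRNA in the P site, had 34092 and 32393 normalized reads with MS177, 40576 and 40673 with MS177N1, 42898 and 42125 with C24, and 41852 and 40018 with DMSO. Both MS177 libraries lay below the other 6, and the log2 fold change was -0.30 (SE 0.04, limma adjusted p = 4.82e-06), the lowest adjusted p of the family. RPS7, needed for assembly of the small subunit and able to bind MDM2, had 12259 and 12904 normalized reads with MS177, 14584 and 14291 with MS177N1, 15449 and 14936 with C24, and 14777 and 16553 with DMSO. It was below all other libraries with MS177 (-0.31, SE 0.05, limma adjusted p = 6.85e-05).

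RPS15, needed for export of the small subunit from the nucleus, had 29879 and 26818 normalized reads with MS177 and 34626 and 33730 with DMSO (-0.27, SE 0.05, limma adjusted p = 0.000615). It was also below every MS177N1 and C24 library with MS177, but was no longer called once the length and GC trend was removed (-0.07, limma adjusted p = 0.168). RPS27A, made as a fusion with ubiquitin, had 18656 and 18270 with MS177 and 21118 and 21336 with DMSO (-0.20, SE 0.04, limma adjusted p = 0.00115). The mRNA-entry protein RPS3 (-0.18), the X-linked RPS4X (-0.17), the exit-platform protein RPS14 (-0.15) and RPS6, the substrate of S6 kinase (-0.13), were lower by less, each with both MS177 libraries below the other 6. RPS2, at the mRNA entry, fell by 0.17 on the log2 scale, but reads of its copies make it uncertain. The decoding protein RPS23 had a log2 fold change of -0.18 with an SE of 0.17, and RPS28, at the mRNA exit, -0.10 with an SE of 0.16, and neither was called. RPS18 was not called (-0.05), and its difference turned to 0.08 once the length and GC trend was removed.

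**Figure D3:**
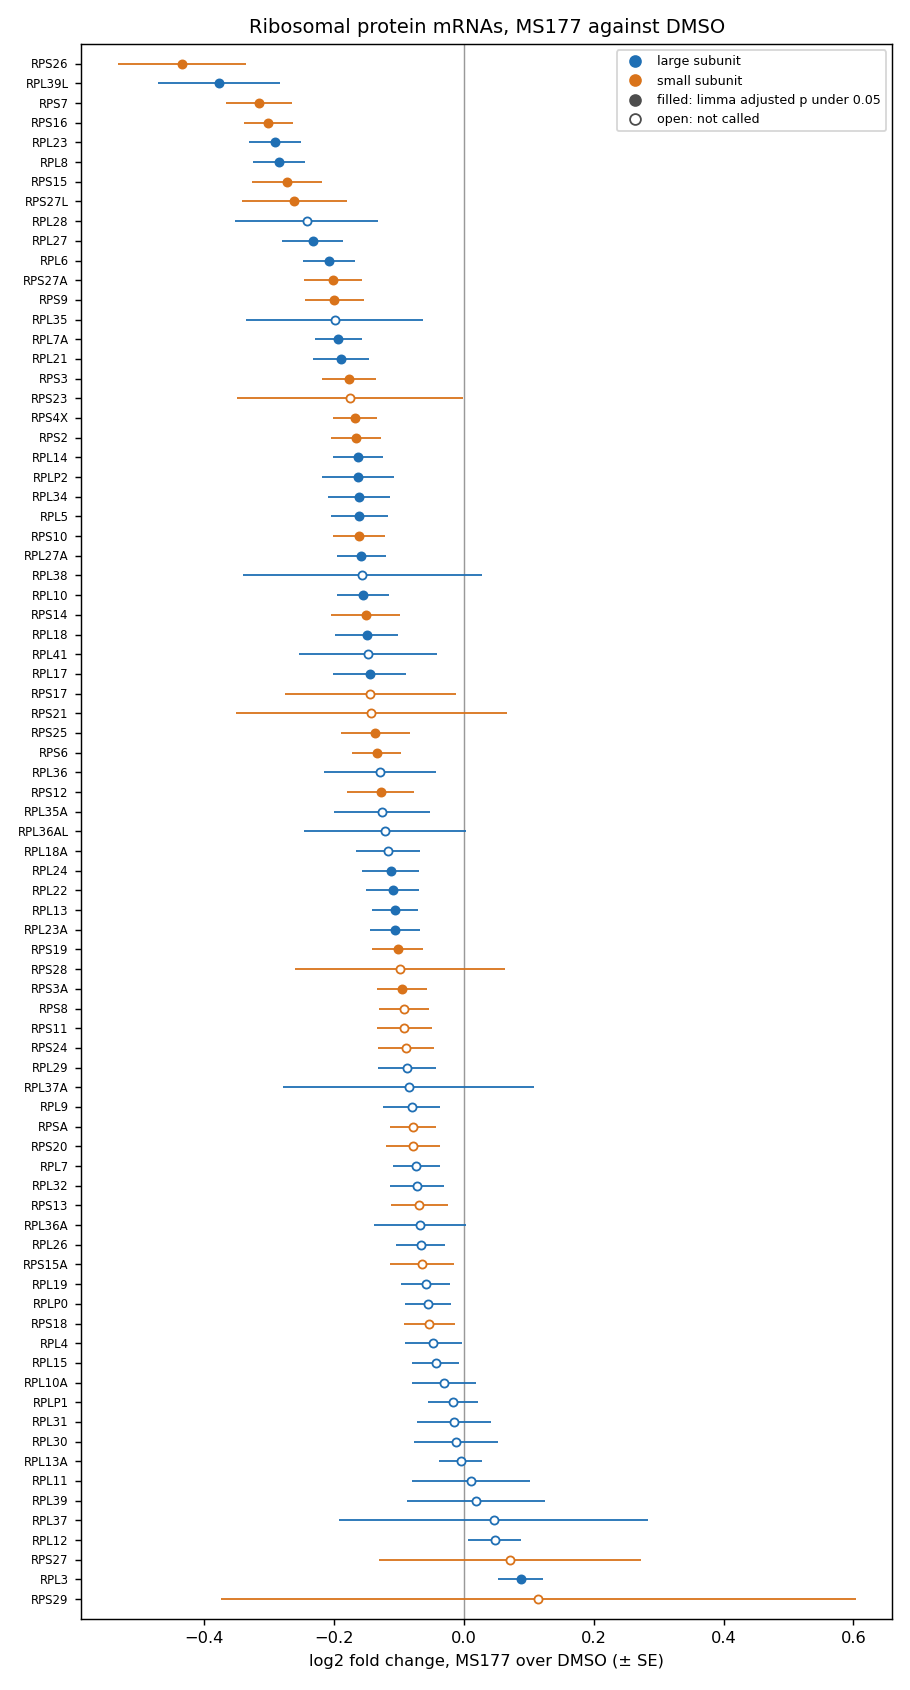
Log2 fold change of MS177 over DMSO (x axis, with SE bars) for 79 of the 80 tested ribosomal protein genes, sorted by value, with large-subunit members in blue, small-subunit members in orange and filled points for a limma adjusted p under 0.05, all with size-factor scaling. The 36 filled points left of 0 run from RPS26 at -0.43 to RPS3A at -0.09, RPL3 at 0.09 is the filled point right of 0, and RPS29 has the widest bar (SE 0.49).

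Of the large-subunit members, 19 of 48 were lower with MS177 than with DMSO (39.6%, against 29.0% of all genes). In the other direction 1 was higher (2.08%, against 28.9% of all genes), and the median was -0.11. RPL23, which sits at the face toward the small subunit and binds MDM2 when free, had 16132 and 15499 normalized reads with MS177, 17998 and 17962 with MS177N1, 19619 and 18730 with C24, and 19383 and 19283 with DMSO. Its log2 fold change was -0.29 (SE 0.04, limma adjusted p = 1.36e-05), with no overlap between MS177 and the rest. RPL27 was lower by a similar amount (-0.23, SE 0.05, limma adjusted p = 0.000459), with 19387 and 17557 normalized reads in MS177 libraries and 22062 and 21296 in DMSO libraries. RPL6 had 14527 and 13899 with MS177 and 16286 and 16530 with DMSO (-0.21, SE 0.04, limma adjusted p = 0.00035).

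The 3 proteins near the peptidyl transferase centre, where peptide bonds form, differed from each other. RPL8 had 48573 and 45681 normalized reads with MS177, 55322 and 57879 with MS177N1, 58589 and 58789 with C24, and 58976 and 55791 with DMSO (MS177 over DMSO -0.28, SE 0.04, limma adjusted p = 1.57e-05). RPL10, added late in assembly of the large subunit, had 30854 and 28863 with MS177 and 33536 and 32905 with DMSO (-0.15, SE 0.04, limma adjusted p = 0.00334), a call that total-read scaling ended (-0.07). RPL3 was the 1 member called higher, with 48990 and 47970 normalized reads with MS177, 46772 and 47687 with MS177N1, 48006 and 48451 with C24, and 46505 and 44740 with DMSO. The C24 libraries reached into the MS177 range. Its log2 fold change of 0.09 (SE 0.03, limma adjusted p = 0.0389) was not called with TMM scaling (0.08), in the fit of 2 groups, without MS177 replicate 1 or without DMSO replicate 2, and it stayed positive in each.

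The P stalk recruits elongation factors to the ribosome. Of its 4 members, RPLP2 was lower with MS177 (18186 and 16357 normalized reads, against 20160 and 18498 with DMSO; -0.16, SE 0.06, limma adjusted p = 0.0209), and removing the length and GC trend turned this to 0.05. RPLP0, the stalk's base, had 53670 and 55553 with MS177 and 55733 and 57715 with DMSO (-0.05, limma adjusted p = 0.196). RPLP1 had 57916 and 54339 with MS177 and 57253 and 56228 with DMSO (-0.02, limma adjusted p = 0.739, and 0.15 without the length and GC trend). RPL12, which anchors the stalk, had 19487 and 18546 with MS177 and 18201 and 18590 with DMSO (0.05, limma adjusted p = 0.33), and total-read scaling called it higher (0.13, limma adjusted p = 0.00937).

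RPL5 and RPL11 form a particle with 5S rRNA and hold back MDM2, the ligase that degrades p53, when they are not on ribosomes. RPL5 had 10211 and 9687 normalized reads with MS177, 10823 and 10555 with MS177N1, 11619 and 11154 with C24, and 11119 and 11119 with DMSO (-0.16, SE 0.04, limma adjusted p = 0.00508). RPL11 had 22545 and 19512 with MS177 and 22459 and 19292 with DMSO, with replicates further apart than the groups (0.01, SE 0.09). Of 9 members listed as inhibitors of MDM2, 6 were lower with MS177 than with DMSO (66.7%, against 29.0% of all genes; median -0.16), namely RPL5, RPL23, RPS3, RPS7, RPS14 and RPS27L. RPL26, which also promotes translation of p53 mRNA, was not called (-0.07, limma adjusted p = 0.151).

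At the peptide exit tunnel, 2 of 8 members were lower with MS177 than with DMSO (25%, against 29.0% of all genes; median -0.06). RPL17, at the tunnel's mouth, had 22292 and 19898 normalized reads with MS177 and 24496 and 22133 with DMSO, groups that overlapped (-0.14, SE 0.06, limma adjusted p = 0.0379). RPL23A, a docking site for factors that bind nascent chains, was the other (-0.11, limma adjusted p = 0.0288). RPL4, which narrows the tunnel, had 39265 and 42793 with MS177 and 40992 and 43752 with DMSO (-0.05, limma adjusted p = 0.379). Of 19 members mutated in Diamond-Blackfan anaemia, 7 were lower with MS177 (36.8%, against 29.0% of all genes; median -0.10), among them RPS26, RPS7 and RPL27, and RPS19, the gene most often mutated, at -0.10 (limma adjusted p = 0.0369). RPL22, which is lost in some leukaemias, was lower (-0.11, SE 0.04, limma adjusted p = 0.0311), with 13275 and 13043 normalized reads in MS177 libraries and 14421 and 13972 in DMSO libraries. RPL17 and RPL22 lost their calls with total-read scaling, without MS177 replicate 2 and without DMSO replicate 1.

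The paralogues were scarce, and 2 of the 3 that were tested were lower with MS177 than with DMSO (66.7%, against 29.0% of all genes). RPL39L, the testis-enriched relative of the tunnel protein RPL39, had 662 and 552 normalized reads with MS177, 779 and 789 with MS177N1, 837 and 856 with C24, and 837 and 737 with DMSO. Its log2 fold change was -0.38 (SE 0.09, limma adjusted p = 0.00281), and MS177 libraries were the lowest. RPL39 itself had 17821 and 16238 with MS177 and 18146 and 15539 with DMSO (0.02, SE 0.11). RPS27L, a p53-induced relative of RPS27, had 889 and 851 with MS177, 974 and 1053 with MS177N1, 1079 and 1136 with C24, and 1115 and 973 with DMSO (MS177 over DMSO -0.26, SE 0.08, limma adjusted p = 0.0117). It was not called with total-read scaling (-0.18) or without DMSO replicate 1 (-0.16). RPL36AL had 1960 and 1525 with MS177 and 2084 and 1698 with DMSO and was not called (-0.12, SE 0.12). Other ribosomal components outside the name rule gave 3 of 6 lower (50%, against 29.0% of all genes) and 0 higher (28.9% of all genes). FAU, the precursor of RPS30, was at -0.30 (SE 0.05, limma adjusted p = 0.000204).

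The same compounds were set side by side at 0.5 uM and 24 h in 6 comparisons, and p-values were adjusted over genes within each. Against MS177N1, MS177 gave 32 of 80 members lower and 0 higher (median -0.12; 28.6% of all genes were called lower and 28.8% higher). The count was 21 without MS177N1 replicate 1 and 14 without MS177N1 replicate 2. Total-read scaling gave 15 lower and 4 higher, and removal of the length and GC trend 19 lower and 10 higher. Shares of all genes are not given for these other fits. RPS26 (-0.39, SE 0.10), RPL39L (-0.38, SE 0.09) and RPS16 (-0.29, SE 0.04) were among the lowest. RPL10 (-0.09, limma adjusted p = 0.0609) and RPL5 (-0.10, limma adjusted p = 0.0538), called against DMSO, were not called against MS177N1.

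Against C24, MS177 gave 54 of 80 members lower (67.5%) and 0 higher, with a median of -0.20, where 29.0% of all genes were called lower and 29.1% higher. Of the small-subunit members 25 of 32 were called, and of the large-subunit members 29 of 48. Beside RPL39L (-0.49, SE 0.09), RPS26 (-0.48, SE 0.10) and RPS16 (-0.36, SE 0.04), the calls took in RPL41, the shortest member. RPL41 had 38974 and 32902 normalized reads with MS177 and 48571 and 44023 with C24 (-0.37, SE 0.11, limma adjusted p = 0.0275). RPLP1 (-0.16, SE 0.04, limma adjusted p = 0.00255) and RPLP0 (-0.11, SE 0.03, limma adjusted p = 0.0106) were called here and not against DMSO. Total-read scaling gave 32 lower and 3 higher, and removal of the length and GC trend 25 lower and 9 higher, again without shares of all genes. The 3 comparisons share the MS177 libraries, so they are not independent of each other. Of the 80 members, 27 were called lower in each of the 3, against 3569 of all 14164 genes (25.2%). In at least 1 of the 3, 56 of the 80 members were called lower, against 4651 of 14164 genes (32.8%). The other 24 members were called lower in none.

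Members called lower in none of the 3 included RPL3, RPL12, RPL13A, RPL4, RPL11 and RPL26. RPL13A, with the most reads of any member, had 75691 and 73043 normalized reads with MS177, 73881 and 75003 with MS177N1, 75530 and 76623 with C24, and 76168 and 73060 with DMSO. The MS177 libraries overlapped those of each other group, and its log2 fold change of MS177 over DMSO was 0.00 (95% interval -0.08 to 0.07).

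MS177N1 and C24 gave no member called. MS177N1 against DMSO had 0 lower and 0 higher by limma (0.0353% of all genes lower and 0% higher), with 6 members at an unadjusted p under 0.05 and a median of 0.00. C24 against DMSO had 0 lower and 0 higher by limma (0.0706% of all genes lower and 0.0212% higher), with 16 members at an unadjusted p under 0.05 and a median of 0.07. C24 against MS177N1 had 0 lower and 0 higher by limma (0% of all genes lower and 0.0141% higher), with 9 members at an unadjusted p under 0.05. In this last comparison all 80 log2 fold changes were positive, between 0.03 and 0.15. A missed threshold does not show equal levels. The 95% interval lay within 1.2-fold in 64 of 80 members for MS177N1 against DMSO, in 58 for C24 against DMSO and in 60 for C24 against MS177N1. For RPS16 the interval of C24 over DMSO was -0.03 to 0.13 and that of MS177N1 over DMSO -0.09 to 0.07, while for RPS29 the interval of C24 over DMSO was -0.60 to 2.06. The lowest adjusted p of C24 against DMSO was that of RPLP1 (0.14, SE 0.04, limma adjusted p = 0.591), with 63992 and 61088 normalized reads with C24 and 57253 and 56228 with DMSO.

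The large and the small subunit were compared within each library, where the scaling cancels. Reads of large-subunit members over those of small-subunit members gave a ratio of 1.44 and 1.45 with MS177, 1.40 and 1.40 with MS177N1, 1.40 and 1.40 with C24, and 1.39 and 1.41 with DMSO. Both MS177 libraries were above the other 6. On the log2 scale the ratio averaged 0.529 ± 0.012 with MS177 and 0.488 ± 0.016 with DMSO (SD, n = 2 each), a difference of 0.04. With 2 libraries a group, the comparison is given as values with no test. The difference was 0.03 to 0.05 with 1 library of either group left out, 0.04 without the paralogues and 0.05 from the mean of log2 levels over members in place of summed reads.

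**Figure D4:**
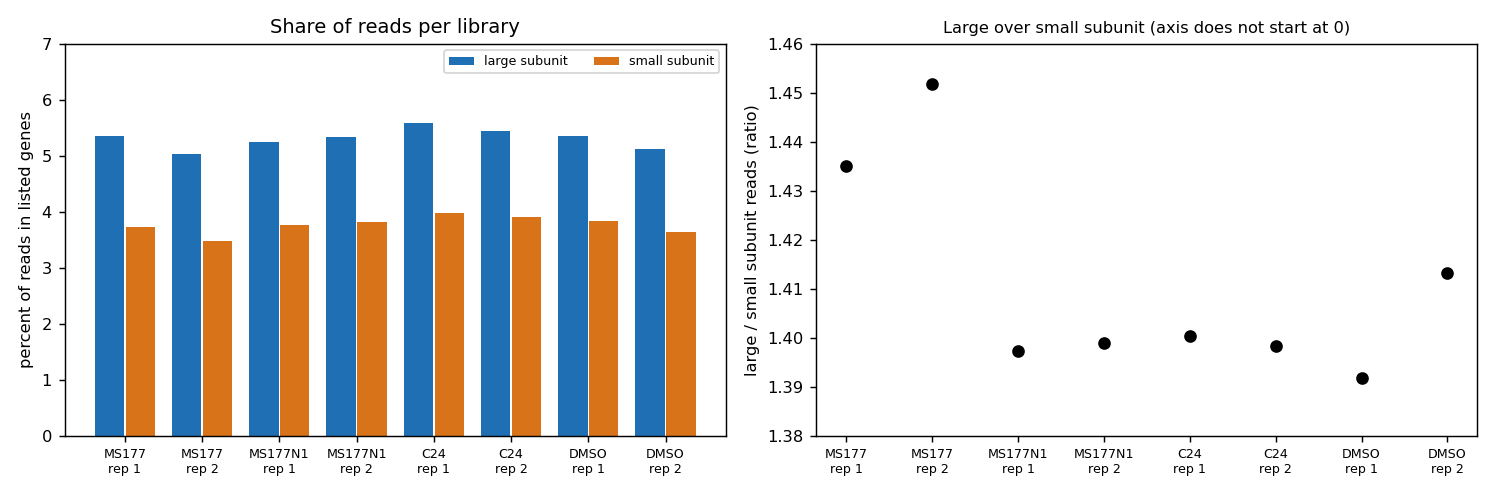
Left, percent of each library's reads in large-subunit (blue) and small-subunit (orange) ribosomal protein genes, from 0. Right, the ratio of the 2 sums in each library, on an axis that does not start at 0, with MS177 at 1.44 and 1.45 and the other 6 libraries between 1.39 and 1.41.

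Members with short coding sequences differed more between replicates, at the median, than longer ones. Log2 ratios of replicate 1 over replicate 2 followed coding length with a Spearman rho of -0.66 with MS177, 0.46 with MS177N1, -0.37 with C24 and -0.65 with DMSO, across 80 genes that share their libraries. In the 11 members with coding sequence under 300 nt, replicate 1 over replicate 2 had a median of 1.26 with MS177, 0.950 with MS177N1, 1.10 with C24 and 1.26 with DMSO. RPS29, a zinc-binding protein of the head with 168 nt of coding sequence, had 6060 and 3421 normalized reads with MS177, 5704 and 7604 with MS177N1, 7220 and 6725 with C24, and 6093 and 2902 with DMSO. Its MS177 and DMSO replicates stood further apart than the means of any pair of groups, and the log2 fold change of 0.11 had an SE of 0.49. RPS27 had 30479 and 23734 with MS177 and 29251 and 22410 with DMSO (0.07, SE 0.20). RPL38, which in mouse embryos favours translation of Hox mRNAs, had 9941 and 7580 with MS177 and 10896 and 8583 with DMSO (-0.16, SE 0.18).

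Of the 11 short members, 2 were called lower with MS177 than with DMSO, RPL39L and RPS27L (18.2%, against 29.0% of all genes). Of the 69 longer ones, 35 were called lower (50.7%) and 33 were not called. The medians of the log2 fold change were -0.10 in short and -0.13 in longer members. Against C24 the short members had a median of -0.35 and the longer ones -0.18. Log2 fold changes of C24 over DMSO also followed coding length, with a rho of -0.63, where no member was called. The part of library-to-library differences by length in the results was not tested beyond the removal of the trend.

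**Figure D5:**
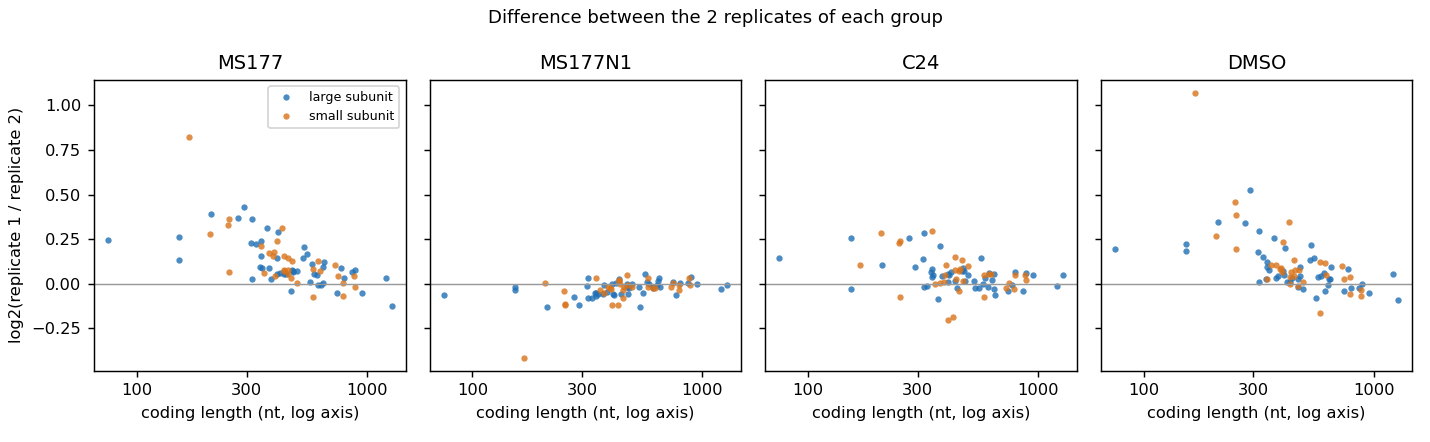
Log2 of replicate 1 over replicate 2 (y axis) against coding length in nucleotides (x axis, log scale) for 80 ribosomal protein genes, 1 panel per group, large-subunit members in blue and small-subunit members in orange. Short members lie above 0 with MS177 and DMSO, where RPS29 is the highest point, and RPS29 is the lowest point with MS177N1.

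Genes that build ribosomes were lower with MS177 by far more than the proteins they assemble. Of 35 ribosome biogenesis factors, 33 were lower with MS177 than with DMSO (94.3%, against 29.0% of all genes). None was called higher (28.9% of all genes), and the median log2 fold change was -0.65. TCOF1, which supports transcription of rRNA genes, had 1908 and 1973 normalized reads with MS177 and 3864 and 4156 with DMSO (-1.05, SE 0.05, limma adjusted p = 2.93e-10). NOP16 (-1.01, SE 0.09) and LYAR (-0.92, SE 0.07), both nucleolar, followed. Of 76 mitochondrial ribosomal proteins, 56 were lower (73.7%, against 29.0% of all genes) and 4 higher (5.26%, against 28.9%), with a median of -0.37. Among them were MRPS26 at -1.19 (SE 0.09), MRPL27 at -0.997 (SE 0.169) and MRPL34 at -0.92 (SE 0.11). No cytosolic member reached the median of the biogenesis list. The difference between the lists was not tested.

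Of 14 other mRNAs of the TOP class, which encode no ribosomal protein, 6 were lower with MS177 than with DMSO (42.9%, against 29.0% of all genes) and 4 higher (28.6%, against 28.9%), with a median of -0.05. The elongation factor EEF1A1 was lowest (-0.66, SE 0.04, limma adjusted p = 1.81e-08), then NPM1, a nucleolar chaperone that is also in the biogenesis list (-0.42, SE 0.04), and the poly(A)-binding protein PABPC1 (-0.35, SE 0.04). Transcribed or processed copies could share reads with these 3 genes.

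Copies also bear on members. Of the 81, 27 had a pseudogene among the listed genes, 48 pseudogenes in all. For RPS2 these held 26.4% as many reads as the gene itself, nearly all in RPS2P5 (MS177 over DMSO -0.14, SE 0.05, limma adjusted p = 0.0248), so its value is uncertain. The share was 3.29% for RPSA, 1.36% for RPS3A and 1.02% for RPL23A, and under 1% for the others.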

How the data were processed

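Per the file headers, the table deposited by the authors holds normalized log2 values per gene for 8 libraries. As tools, the submitters' processing notes list DESeq2 1.38.2, STAR 2.4.2 and Salmon 0.1.19, and as build hg19, without saying what each did. The values share a minimum of 5.967655733 and have the form of a variance-stabilizing transformation, which was inverted. All 130360 of 130360 values gave whole reads within 0.01. Because the deposited unit is log2, limma 3.58.1 (trend and robust, R 4.3.3) was used in place of a count test. It was fitted on log2(reads divided by size factor + 1), so folds of low genes are slightly understated. All 4 groups entered 1 fit. Genes with fewer than 15 reads in all, or with the equivalent of 10 reads in a library of median size reached in fewer than 2 libraries, were left out, which left 14164 genes, over which each of 6 comparisons was adjusted (Benjamini-Hochberg). The fit was also run on simulated counts with the same spread in every gene, unlike these libraries, and no conclusion is drawn from that run.

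Transcript and coding lengths came from GENCODE release 29 (GRCh38) by symbol, and start sequences from RefSeq, so no coordinate comes from the authors' build. Transcript length was the median over a gene's complete protein-coding transcripts where it had any, which need not be the transcript expressed here. For RPL7A this gave 680 nt, below its coding length of 798 nt. Values per kilobase and the length and GC trend rest on these transcript lengths. Members and lists were chosen with earlier results of these data known. Genes were named by a rule: the 12 lowest and up to 6 highest called with MS177, genes of each role, members called in another comparison, the highest and lowest per length, and at most 3 per other list. Members outside it (RPL4, RPL13A, RPL38, RPS23 and RPS29) were chosen after their values were seen. Values of 1 member that the rule names are not reported here, and it stays in all counts. No sample was left out.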

Additional observations from a re-analysis of the deposited data

How the results depend on the processing

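No member was called in MS177N1 against DMSO, C24 against DMSO or C24 against MS177N1 under any setting tried. A pseudocount of 5, no filter and the deposited log2 values each gave the reported 37 members lower in MS177 against DMSO, and TMM scaling gave 40. Called members, higher or lower, in MS177 against DMSO numbered 18 (15 lower, 3 higher) with total-read scaling and 24 (all lower) in the fit of 2 groups. With the length and GC trend removed 18 were lower and 8 higher. In MS177 against MS177N1 these were 19 (15 lower, 4 higher) with total-read scaling, and 19 lower and 10 higher without the trend. In MS177 against C24 they were 35 (32 lower, 3 higher) with total-read scaling and 34 (25 lower, 9 higher) without the trend. Shares of all genes called under each setting are not given here, so whether members exceed them is not shown. Removing the trend turned the log2 fold changes of RPLP1 to 0.149, of RPLP2 to 0.0549 and of RPS18 to 0.0786. The cause was not tested.

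With each library left out in turn, members called lower numbered 26 to 49 in MS177 against DMSO, 14 to 48 in MS177 against MS177N1 and 36 to 59 in MS177 against C24. Members called higher or lower numbered 27 to 49 in MS177 against DMSO, 14 to 48 in MS177 against MS177N1 and 36 to 59 in MS177 against C24. Members called higher numbered 0 to 1 in MS177 against DMSO, 0 to 2 in MS177 against MS177N1 and 0 in MS177 against C24. The shares of all genes called in these fits are not given here, so these counts have no background beside them. With each library left out in turn, the log2 ratio of large over small subunit, MS177 minus DMSO, ran from 0.0304 to 0.0525.

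The reported fit did not pair libraries by replicate number. Replicate differences of 10176 genes correlated at 0.384 between MS177 and DMSO, so same-numbered libraries of these groups shared part of their differences. Between other pairs of groups the correlation was -0.1 to 0.02. With the replicate block, 42 members were lower in MS177 against DMSO, 39 in MS177 against MS177N1 and 60 in MS177 against C24. Tested members had at least 552 normalized reads in every library, and replicates differed most in the shortest members.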
